A study of Mus musculus with 12 samples.

Results

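Divergent promoter pairs are head-to-head gene pairs, in which a gene on the minus strand and a gene on the plus strand start close to each other and are read away from a shared stretch of DNA. Pairs were taken from autosomal protein-coding genes of the GENCODE M21 annotation of the mouse genome (mm10, GRCm38), using the most upstream transcription start site (TSS) of each gene, wherever the minus-strand TSS lay to the left of the plus-strand TSS by at most 1 kb. This gave 734 pairs holding 1448 of 20807 genes (6.96%). Of these genes, 20 belonged to more than 1 pair. The site of a pair was the midpoint between its TSSs. The comparison sites were 5346 isolated single TSSs, which had no other protein-coding TSS within 50 kb, and 1022 looser head-to-head pairs with TSSs 1 to 10 kb apart. The median spacing of the pairs was 128 bp (range 1 to 987 bp), and 558 pairs were spaced by up to 250 bp.

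The sites were read in Okazaki fragment sequencing (OK-seq) of mouse embryonic stem cells (ESCs), in which fragments labelled by a short pulse of the thymidine analog EdU were size-selected, captured through biotin and sequenced by strand. The 12 samples formed 6 groups of 2 replicates. Naive ESCs were grown with LIF+2i, and epiblast-like cells (EpiLCs) were obtained after withdrawal of these factors. In both states there were 3 genotypes. Control cells lacked KMT2C, a lysine methyltransferase that places H3K4me1 at enhancers. KMT2C/D dKO cells lacked KMT2C and also its paralog KMT2D, which was deleted by a tamoxifen-inducible CreER. KMT2C/D dCD cells carried catalytically dead forms of both proteins. No group therefore held an intact KMT2C. Each genotype came from an engineered line, and the dCD cells were of another strain background (R1, 129) than the control and dKO cells (mixed C57BL/6 and 129), so that strain and genotype cannot be told apart in comparisons with dCD.

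Okazaki fragments are the short pieces in which the lagging strand is made, so the strand that carries them tells the direction of the replication fork. Where forks leave a zone of initiation in both directions, the share of reads from the Crick strand, which marks forks moving from left to right, is lower on the left than on the right. Origins of mammalian cells are frequent near active promoters, and head-to-head promoters, which are often CpG islands of housekeeping genes, have transcription leaving them on both sides. At such a site transcription and forks that start there run in the same direction on either side.

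The stretches between the TSSs of 8 pairs are given here, since their values are described further on: 3 of the 6 pairs with the highest strand bias in EpiLCs, 3 of the 6 with the lowest, and 2 pairs that hold a replication gene. All are read 5′ to 3′ on the plus strand of GRCm38. They lie at chr2:91710577-91710851 (Atg13/Harbi1), chr11:86544806-86544990 (Rps6kb1/Tubd1), chr7:101933896-101934110 (Lrrc51/Numa1), chr12:73286711-73286778 (Trmt5/Slc38a6), chr17:56584586-56584824 (Safb2/Safb), chr13:23683949-23684198 (Hist1h2ac/Hist1h2bc), chr11:75348325-75348432 (Rpa1/Smyd4) and chr4:108579337-108579422 (Prpf38a/Orc1). By the choice of the most upstream TSSs, each stretch belongs to neither gene of its pair. Capitals mark matches, on either strand, to 7 motifs: the GC box (GGGCGG), the CCAAT box (CCAAT), the TATA box (TATAAA), an ETS factor site (CCGGAAG), the core of the NRF1 site (GCATGCG), the YY1 site (AAGATGG) and the cyclic AMP response element (CRE) core (TGACG).
Atg13/Harbi1: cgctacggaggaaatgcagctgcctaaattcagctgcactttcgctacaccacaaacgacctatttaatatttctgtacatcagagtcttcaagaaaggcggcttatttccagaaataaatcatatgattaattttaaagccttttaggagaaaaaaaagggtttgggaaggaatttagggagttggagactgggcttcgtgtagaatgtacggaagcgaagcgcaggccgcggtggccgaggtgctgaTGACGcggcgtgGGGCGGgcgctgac
Rps6kb1/Tubd1: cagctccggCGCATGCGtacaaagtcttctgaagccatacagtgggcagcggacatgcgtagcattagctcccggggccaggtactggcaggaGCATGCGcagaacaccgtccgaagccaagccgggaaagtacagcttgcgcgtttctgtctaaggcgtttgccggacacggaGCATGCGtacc
Lrrc51/Numa1: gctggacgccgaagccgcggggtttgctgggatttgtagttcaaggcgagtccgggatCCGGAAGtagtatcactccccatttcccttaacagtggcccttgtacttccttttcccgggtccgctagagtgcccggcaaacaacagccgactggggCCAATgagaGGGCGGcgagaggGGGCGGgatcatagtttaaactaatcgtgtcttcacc
Trmt5/Slc38a6: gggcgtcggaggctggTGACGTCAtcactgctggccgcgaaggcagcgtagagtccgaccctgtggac
Safb2/Safb: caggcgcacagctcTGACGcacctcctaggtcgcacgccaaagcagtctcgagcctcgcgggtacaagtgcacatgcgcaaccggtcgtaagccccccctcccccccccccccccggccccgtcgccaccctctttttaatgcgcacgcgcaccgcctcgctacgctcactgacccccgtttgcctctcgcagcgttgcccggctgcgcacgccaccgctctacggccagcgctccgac
Hist1h2ac/Hist1h2bc: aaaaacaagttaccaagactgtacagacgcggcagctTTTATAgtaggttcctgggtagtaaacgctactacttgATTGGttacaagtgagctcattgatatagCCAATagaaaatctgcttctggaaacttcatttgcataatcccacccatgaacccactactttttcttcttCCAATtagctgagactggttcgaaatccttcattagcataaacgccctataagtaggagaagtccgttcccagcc
Rpa1/Smyd4: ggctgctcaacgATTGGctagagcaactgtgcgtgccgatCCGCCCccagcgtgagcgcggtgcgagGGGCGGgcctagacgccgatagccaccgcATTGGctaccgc
Prpf38a/Orc1: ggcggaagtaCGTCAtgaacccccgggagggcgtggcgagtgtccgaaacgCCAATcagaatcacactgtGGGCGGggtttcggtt

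Of the 8 stretches, 4 held a GC box, 4 a CCAAT box and 4 a CRE core. Atg13/Harbi1 held a GC box and a CRE core, Rps6kb1/Tubd1 held 4 matches to the NRF1 core, overlapping matches on opposite strands counted apart, and Lrrc51/Numa1 held 2 GC boxes, a CCAAT box and an ETS site. Rpa1/Smyd4 held 2 GC boxes and 2 CCAAT boxes, and Prpf38a/Orc1 held 1 of each and a CRE core. In Trmt5/Slc38a6 the CRE core was matched on both strands. The histone pair held 3 CCAAT boxes and a TATA box, and its stretch was AT-rich (41.6% GC), whereas that of Safb2/Safb held a CRE core and 69.9% GC. A match is a description of letters and not a bound site.

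The deposited tracks held 3652593 to 4405360 reads on the autosomes and X chromosome in the 3 naive libraries and 11398128 to 13591646 in the 3 EpiLC libraries, with the 2 replicates of each group already summed. There was therefore 1 library per condition and no error between replicates. Intervals below are 95% intervals of counting error alone, and comparisons of conditions compare libraries. Strand bias, in percentage points, is the Crick percentage over the 25 kb to the right less the Crick percentage over the 25 kb to the left. A pair had on average 49.0 to 59.0 reads per side in the naive libraries and 150.2 to 173 in the EpiLC libraries. With at least 10 reads on each side required in every library, 733 of 734 pairs remained (all except 2700097O09Rik/Srp54a), along with 5099 isolated single TSSs and 997 looser pairs.

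Crick share stepped up across divergent pairs in every library. In the naive control library it was 46.6% on the left and 55.3% on the right, a mean strand bias of 8.68 points (95% counting interval 7.98 to 9.37). The naive dKO library gave 8.11 points (7.37 to 8.84) and the naive dCD library 8.43 points (7.65 to 9.20). In EpiLCs the step was smaller, at 4.72 points in the control library (4.29 to 5.15), 5.78 in dKO (5.37 to 6.18) and 5.62 in dCD (5.22 to 6.03). The mean was above 0 on each of the 19 autosomes in each of the 6 libraries. By the mean of the 6 libraries it ran from 2.98 points on chromosome 19 (23 pairs) to 9.97 points on chromosome 14 (27 pairs).

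**Figure D1:**
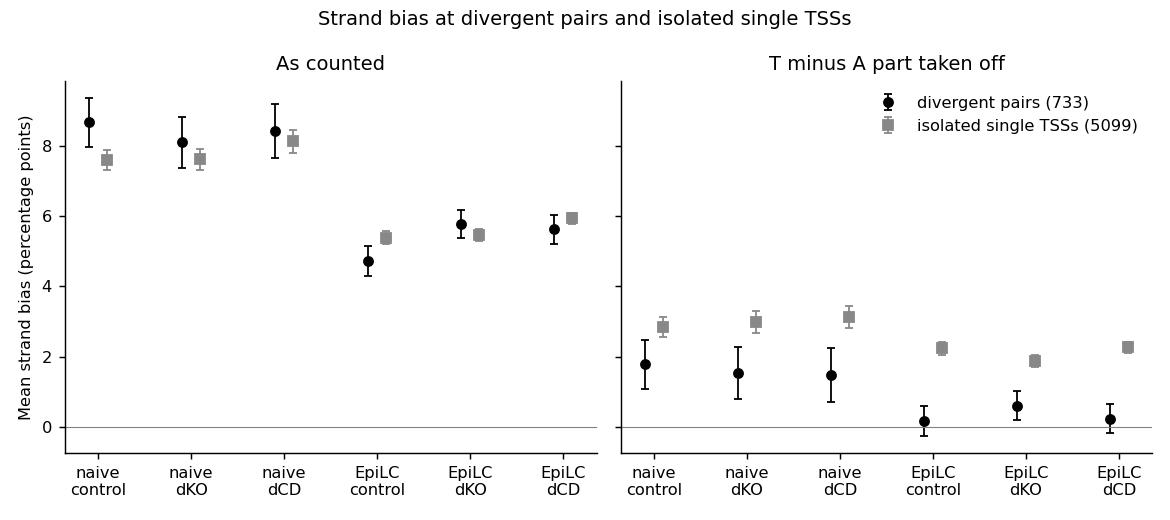
Mean strand bias in percentage points (vertical axis) in each of the 6 libraries at divergent pairs (black circles) and isolated single TSSs (grey squares), as counted (left) and corrected for T minus A content (right). Bars are 95% counting intervals. As counted, pairs lie at 8.11 to 8.68 points in naive ESCs and 4.72 to 5.78 in EpiLCs, beside single TSSs. After the correction pairs lie below single TSSs in all 6 libraries.

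The step was an average over pairs that differed widely. Above 0 in each of the 6 libraries were 258 of 733 pairs (35.2%), against 31.1% of the 19815 autosomal TSSs that passed the same minimum of reads. Below 0 in each library were 12 pairs (1.64%), against 4.73% of those TSSs. Of isolated single TSSs, 34.2% were above 0 and 3.04% below 0 in each library. When reads of the 6 libraries were summed, the counting interval lay above 0 at 413 pairs (56.3%; 46.9% of all TSSs) and below 0 at 34 pairs (4.64%; 9.16% of all TSSs). Among isolated single TSSs these shares were 50.9% and 6.67%. The standard deviation over pairs, with counting variance taken out, was 7.21 points in naive control, 8.27 in naive dKO, 8.82 in naive dCD, 5.50 in EpiLC control, 6.35 in EpiLC dKO and 6.88 in EpiLC dCD.

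A bias of at least 10 points was found at 331 pairs in naive control (45.2% of pairs against 39.6% of all TSSs), 344 in naive dKO (46.9% against 39.8%) and 327 in naive dCD (44.6% against 41.1%). In EpiLCs it was found at 182 pairs in control (24.8% against 26.7%), 231 in dKO (31.5% against 28.2%) and 226 in dCD (30.8% against 29.4%). Isolated single TSSs reached 10 points at 43.0%, 44.0% and 44.5% in naive control, dKO and dCD. In EpiLCs they did so at 30.5%, 31.1% and 32.3% in the same order. A share close to that of all TSSs or of single TSSs says nothing particular of the pairs. At the other end, -10 points or lower was reached at 47 pairs in naive control (6.41% against 12.4%), 59 in naive dKO (8.05% against 12.6%) and 65 in naive dCD (8.87% against 13.0%). The EpiLC counts were 23 in control (3.14% against 5.66%), 28 in dKO (3.82% against 5.64%) and 27 in dCD (3.68% against 5.62%). Isolated single TSSs reached -10 points or lower at 10.7% to 11.7% in the naive and 4.33% to 4.53% in the EpiLC libraries. Pairs with a reversed step were thus the smaller share in each library.

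Whether a divergent pair carries a larger step than a promoter that stands alone was asked within each library. As counted, the difference between pairs and isolated single TSSs had no common sign. Pairs exceeded single TSSs by 1.07 points in naive control (95% counting interval 0.316 to 1.82), by 0.485 in naive dKO (-0.311 to 1.28), by 0.293 in naive dCD (-0.543 to 1.13) and by 0.314 in EpiLC dKO (-0.122 to 0.749). In EpiLC control the difference was -0.671 (-1.14 to -0.206) and in EpiLC dCD -0.321 (-0.757 to 0.114). Over the 6 libraries it averaged 0.195 points (above 0 in 4 of 6; exact two-sided sign-flip permutation test p = 0.5, where the smallest p possible is 0.03125). The libraries share the same sites and their sequence, so here and below this p does not cover the spread among sites. Looser pairs with TSSs 1 to 10 kb apart gave 8.30 to 9.08 points in the naive and 5.68 to 6.39 in the EpiLC libraries. Just inside the limit of 1 kb, the 68 pairs spaced by more than 500 bp averaged 6.999 points over the 6 libraries, and just outside it, the 44 pairs spaced by up to 1500 bp averaged 4.79, with counting errors of 0.818 to 1.53 points in a single library. The 398 pairs spaced by 1 to 5 kb averaged 6.24 and the 599 spaced by 5 to 10 kb 7.97, so that the mean did not fall steadily with spacing.

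The settings mattered for this comparison. With windows of 10 kb the pairs exceeded the single TSSs in 6 of 6 libraries, by 1.30 points on average (exact sign-flip p = 0.03125), as they did with windows of 50 kb (1.19 points, same p). So did the 181 pairs that, like the single TSSs, had no other TSS within 50 kb (2.31 points; exact sign-flip p = 0.03125). Against single TSSs weighted to the CpG counts of these 181 pairs, the difference was 0.675 points, above 0 in 4 of 6 libraries (exact sign-flip p = 0.125). Promoters of pairs were also richer in CpG, with a median of 69 CpG within 500 bases on either side against 49. When single TSSs were weighted to the CpG counts of the pairs, the pairs were lower in 6 of 6 libraries, by a mean difference of -1.33 points (exact sign-flip p = 0.03125).

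Base composition also changed across the midpoint of pairs. Genes carry an excess of T over A on their coding strand, and at a head-to-head pair the coding strand switches from minus to plus. T minus A content averaged -1.79% of bases in the 25 kb left of pairs and 1.960% in the 25 kb right of them, a step of 3.75 percentage points. The step at isolated single TSSs was 2.58 points. At pairs it was above 0 in 629 cases (85.7%), against 75.7% of isolated single TSSs. Within 5 kb of the midpoint T minus A content went from -2.36% to 2.67%, and at 95 to 100 kb it was -0.75% on the left and 0.56% on the right.

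Strand bias followed this step. Pairs were grouped by T minus A step and values averaged over the 6 libraries. The 64 pairs with a step below -1 had a mean strand bias of -1.93 points, the 97 pairs between -1 and 1 had 1.77, the 135 between 1 and 3 had 4.45, the 162 between 3 and 5 had 7.38, the 150 between 5 and 7 had 10.3, and the 125 with reads at 7 or more had 13.3. Over the 733 pairs the rank correlation of mean strand bias with T minus A step was 0.61 (Spearman; Pearson 0.63), given as a description since neighbouring pairs share reads. Windows over 100 kb from any TSS showed the same order at a lower level, from -5.43 points below -1 to 10.5 points at 7 or more.

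**Figure D2:**
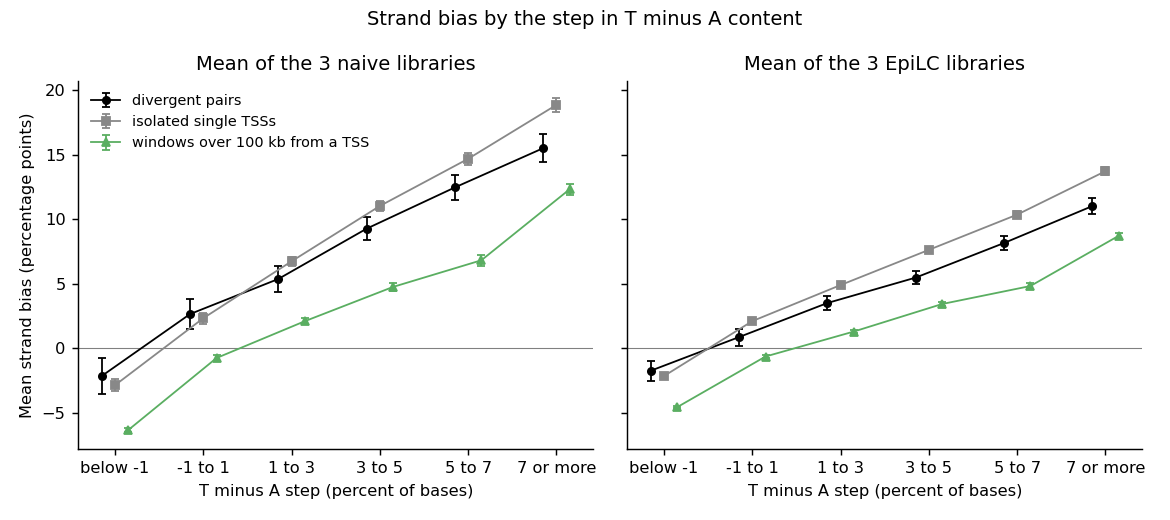
Mean strand bias in percentage points (vertical axis) by the T minus A step, in percent of bases (horizontal axis), for divergent pairs (black), isolated single TSSs (grey) and windows over 100 kb from any TSS (green), averaged over the 3 naive (left) and the 3 EpiLC libraries (right). Bars are 95% counting intervals. In both states all 3 kinds of site climb with the step, and windows far from TSSs lie lowest in every group.

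Some pairs had hardly any change in composition. At the 97 pairs with a T minus A step between -1 and 1, strand bias was 3.08 ± 0.97 points (counting SE) in naive control, 2.50 ± 1.01 in naive dKO and 2.42 ± 1.06 in naive dCD. In EpiLCs it was 0.451 ± 0.608 in control, 1.21 ± 0.56 in dKO and 0.986 ± 0.558 in dCD. The 886 single TSSs of the same group gave 1.73 to 2.67 points in the naive and 1.93 to 2.29 in the EpiLC libraries.

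The part of the Crick share that followed T minus A content was then estimated in each library from single 1 kb bins relative to their neighbours and taken off. The slopes were 1.70 to 1.82 points of Crick share per percentage point in the naive and 1.20 to 1.41 in the EpiLC samples. The remaining strand bias at pairs was 1.78 points in naive control (1.08 to 2.48), 1.53 in naive dKO (0.794 to 2.27) and 1.47 in naive dCD (0.698 to 2.25). In EpiLCs 0.154 points remained in control (-0.277 to 0.585), 0.606 in dKO (0.204 to 1.01) and 0.234 in dCD (-0.170 to 0.638). Single TSSs kept 1.87 to 3.13 points. The pairs were then lower than the single TSSs in 6 of 6 libraries, by -1.59 points on average (range -2.08 to -1.07; exact sign-flip p = 0.03125). All 6 libraries share the composition of these sites, so a common sign is not 6 independent results. Counting intervals above 0 were left at 127 pairs (17.3%), against 26.2% of all TSSs, and intervals below 0 at 74 pairs (10.1%), against 7.07%. Slopes from 25 kb windows far from TSSs were lower, at 1.26 to 1.34 in naive ESCs and 0.881 to 0.994 in EpiLCs, and left 1.37 to 3.45 points at pairs. Corrected values below are by the 1 kb slopes unless the 25 kb slopes are named. EdU is built in opposite A, composition differs between the sides of a gene, and transcription runs the same way, and the parts of these in the strand bias were not tested.

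The profile in steps of 5 kb had a different shape at pairs than at single TSSs. At pairs the Crick share jumped between the last 5 kb on the left and the first 5 kb on the right, from 45.8% to 56.4% in naive control and from 48.6% to 53.6% in EpiLC control. The right-minus-left difference in these innermost 5 kb was 10.5 points in naive control, 8.83 in naive dKO, 6.73 in naive dCD, 4.96 in EpiLC control, 7.23 in EpiLC dKO and 6.04 in EpiLC dCD. Far out it was larger than that in 5 of 6 libraries, all but naive control. At 75 to 100 kb it was 9.56 points in naive control, 10.9 in naive dKO, 13.2 in naive dCD, 7.92 in EpiLC control, 8.98 in EpiLC dKO and 10.3 in EpiLC dCD. At single TSSs, read along the gene, the difference was 3.13 to 5.58 points in the innermost 5 kb, 6.08 to 9.42 at 5 to 25 kb and 2.83 to 4.25 at 75 to 100 kb.

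After correction for T minus A content by the 1 kb slopes, the interval of the difference at the midpoint lay above 0 in 1 library, included 0 in 2 and lay below 0 in 3. The lower slopes from 25 kb windows take off less. They were not applied to the profile, so the signs at the midpoint hold for the 1 kb slopes only. The innermost difference was 1.57 points in naive control (0.115 to 3.03), 0.191 in naive dKO (-1.34 to 1.72), -2.20 in naive dCD (-3.80 to -0.605), -0.997 in EpiLC control (-1.92 to -0.0765), 0.229 in EpiLC dKO (-0.620 to 1.08) and -1.20 in EpiLC dCD (-2.06 to -0.335). Farther out the difference grew in each library, to 6.20 to 9.97 points at 75 to 100 kb. Across the midpoint itself the corrected Crick share fell in naive dCD (51.7 to 49.5%), EpiLC control (51.4 to 50.4%) and EpiLC dCD (51.4 to 50.2%). Single TSSs had 1.77 to 2.68 points left at 75 to 100 kb.

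**Figure D3:**
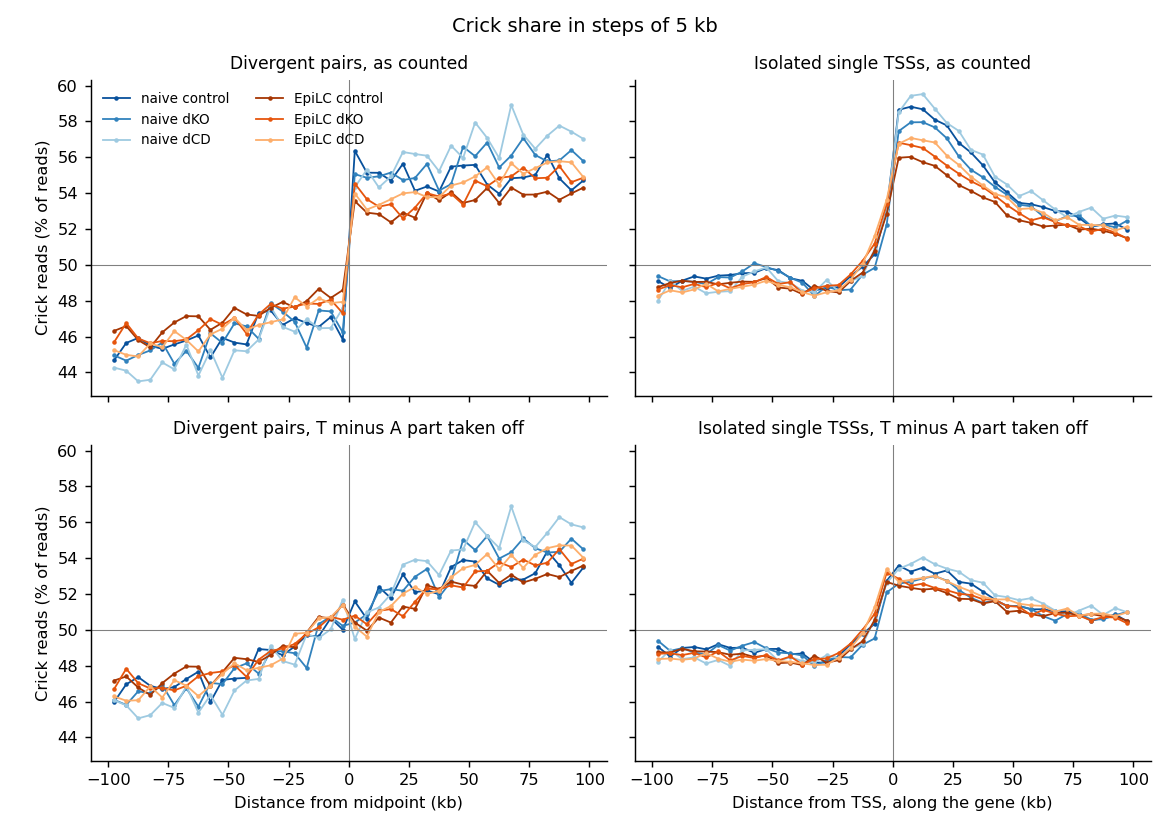
Crick reads in percent of reads (vertical axis) in steps of 5 kb to 100 kb on either side (horizontal axis) of divergent pairs (left) and isolated single TSSs read along the gene (right), as counted (top) and corrected for T minus A content (bottom), with a line for each of the 6 libraries. At pairs the jump at the midpoint, from 45.8% to 56.4% in naive control, falls to 1.57 points in the lower panel, where the share to the right still exceeds that to the left at 75 to 100 kb in each library.

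Shifting the centre placed the step. As counted, strand bias was highest with the centre at the midpoint itself in each of the 6 libraries, among shifts of 1 kb up to 50 kb. Over the reads of all 6 libraries it was 6.15 points there, 0.919 points with the centre 50 kb to the left and 0.855 points 50 kb to the right. Correction for T minus A content moved the highest value. It then lay at a shift of 0, 7 and 13 kb in naive control, dKO and dCD and of -21, -23 and -25 kb in the EpiLC libraries, and over all reads at -22 kb, where it was 2.01 points against 0.795 at the midpoint. On the right, strand bias over all reads reached 1.70 points at 28 kb. Left and right are arbitrary for pairs that were not turned. The pairs were also turned so that the longer gene lay to the right. Turning alone left the highest value at the midpoint in all 6 libraries. After the same correction, the highest value of the turned pairs lay toward the shorter gene in each library, 13 to 40 kb from the midpoint, and over all reads at 27 kb, where it was 3.17 points against 0.799 at the midpoint.

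The sides of a pair were unequal. On the side of the longer gene the Crick share lay away from 50%, in the direction of transcription, by 8.21 ± 0.24 points (counting SE) in naive control, 7.72 ± 0.25 in naive dKO and 9.10 ± 0.26 in naive dCD. In EpiLCs it lay away by 5.14 ± 0.15 in control, 5.95 ± 0.14 in dKO and 6.32 ± 0.14 in dCD. On the side of the shorter gene the same measure was -0.921 to 0.536 points over the 6 libraries. As counted, the step thus lay mostly on the side of the longer gene. With the T minus A part off, the longer side had 1.80 to 3.995 points and the shorter side -2.44 to -1.03 over the 6 libraries.

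Length of the genes went along with this. The genes of pairs had a median length of 19.2 kb, against 52.6 kb for genes of isolated single TSSs. Mean strand bias over the 6 libraries was 4.37 ± 0.19 points (counting SE) at the 286 pairs with both genes under 25 kb, 7.63 ± 0.20 at the 289 pairs with a single gene under 25 kb and 10.1 ± 0.28 at the 158 pairs with reads whose genes were both 25 kb or longer. Their T minus A steps were 1.76, 4.32 and 6.30 percentage points. Corrected for T minus A content by the 1 kb slopes, the order turned, to 1.52 ± 0.19, 0.812 ± 0.199 and 0.227 ± 0.278 points. The lower slopes from 25 kb windows take off less. Whether the order also turns under them was not tested.

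Neighbouring genes showed a similar pattern. The 181 pairs with no other TSS within 50 kb had 9.01 ± 0.26 points, those with 1 to 3 others 7.20 ± 0.18 and those with 4 or more 4.19 ± 0.24, beside T minus A steps of 5.39, 4.04 and 1.54. Taking the T minus A part off by the 1 kb slopes left 0.537 ± 0.258, 0.835 ± 0.178 and 1.64 ± 0.24 points. This order was not tested under the lower slopes from 25 kb windows. As counted, strand bias differed less by the spacing of the TSSs. Pairs spaced by up to 100 bp had 6.67 ± 0.19 points, by more than 100 and up to 250 bp 7.06 ± 0.21, by more than 250 and up to 500 bp 7.03 ± 0.32 and by more than 500 bp 6.999 ± 0.393. Values by spacing after the correction were 0.900 ± 0.192, 0.966 ± 0.214, 0.288 ± 0.324 and 2.30 ± 0.39 points, a wider range than that by neighbours. From the lowest to the highest quartile of CpG count, pairs had 6.24 ± 0.24, 7.72 ± 0.25, 7.31 ± 0.26 and 6.33 ± 0.25 points as counted and 1.78 ± 0.24, 1.62 ± 0.25, 0.382 ± 0.260 and 0.0150 ± 0.247 when corrected. Across pairs the rank correlation of strand bias as counted was 0.002 with spacing and 0.02 with CpG count.

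Between states, strand bias at pairs was lower in EpiLCs than in naive ESCs in all 3 genotypes. The difference was -3.95 points in control (95% counting interval -4.77 to -3.13), -2.33 in dKO (-3.17 to -1.49) and -2.80 in dCD (-3.67 to -1.93). Single TSSs were also lower in EpiLCs, by -2.21, -2.16 and -2.19 points. The drop at pairs exceeded that at single TSSs in control, where the difference of the differences was -1.74 points (-2.63 to -0.855), and the intervals included 0 in dKO (-0.172; -1.08 to 0.736) and dCD (-0.615; -1.56 to 0.328). With the T minus A part off, these values were -1.01 (-1.90 to -0.128), 0.198 (-0.710 to 1.11) and -0.375 (-1.32 to 0.567). The amplitude of the whole library, the standard deviation of Crick percentage over 50 kb bins without counting variance, was also lower in EpiLCs (9.71, 10.6 and 12.3 points in control, dKO and dCD against 12.6, 13.3 and 16.5), as was the slope on T minus A content. With each EpiLC value scaled to the amplitude of the naive library, the states differed by -2.55 points in control (-3.45 to -1.66), -0.907 in dKO (-1.80 to -0.0169) and -0.855 in dCD (-1.80 to 0.0907). With the T minus A part off, the state difference at pairs was -1.63 (-2.45 to -0.805), -0.924 (-1.76 to -0.0849) and -1.24 (-2.11 to -0.365). The dKO interval included 0 when corrected values were also scaled by amplitude. At pairs with a T minus A step between -1 and 1, the intervals of dKO and dCD included 0. Values of single pairs in naive ESCs and EpiLCs had a rank correlation of 0.63 over 733 pairs, and of 0.44 with the T minus A part off. The libraries share the sequence of each site.

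Mutants were compared with the control library of the same state. In naive ESCs strand bias at pairs differed by -0.570 points in dKO (-1.58 to 0.443) and by -0.250 in dCD (-1.29 to 0.791), intervals that include 0. The naive dCD value depended on the setting, at -2.25 (-3.16 to -1.33) when scaled to the amplitude of the control library and 0.925 (0.183 to 1.67) in windows of 50 kb. In EpiLCs it was higher by 1.05 points in dKO (0.464 to 1.64) and by 0.902 in dCD (0.311 to 1.49), as counted. Scaled in the same way these were 0.553 (-0.0132 to 1.12) and -0.267 (-0.803 to 0.270), intervals that include 0. At single TSSs the EpiLC differences were 0.0691 (-0.172 to 0.311) in dKO and 0.552 (0.313 to 0.792) in dCD. Pairs minus single TSSs thus differed between dKO and control EpiLCs by 0.985 points (0.348 to 1.62) and between dCD and control by 0.350 (-0.288 to 0.987). With the T minus A part off, the differences at pairs in EpiLCs were 0.452 (-0.138 to 1.04) in dKO and 0.0801 (-0.510 to 0.671) in dCD, so that both intervals included 0. Corrected pairs minus corrected single TSSs differed between dKO and control EpiLCs by 0.819 points (0.181 to 1.46), of which a part lay in the single TSSs, lower in dKO by -0.366 (-0.608 to -0.125), and between dCD and control by 0.0496 (-0.588 to 0.687). At pairs the lower slopes from 25 kb windows left 0.652 (0.0623 to 1.24) and 0.677 (0.0862 to 1.27) instead, which are above 0. The slope on T minus A content was 1.37 in EpiLC dKO and 1.41 in EpiLC dCD against 1.20 in EpiLC control.

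Promoter motifs were counted in 300 bases, centred on the midpoint for pairs and on the TSS for single genes. The ETS site was found in 208 of 734 pairs (28.3%), against 7.65% of isolated single TSSs and 11.7% of all TSSs; with single TSSs weighted to the CpG counts of the pairs it was 10.4%. ETS factors are a large family of activators that includes GABPA, a regulator of many housekeeping genes. The NRF1 core was found in 58 pairs (7.90%), against 3.42% of single TSSs, 5.05% of them after weighting and 4.23% of all TSSs. In the same order, the YY1 site was found in 78 pairs (10.6%), against 5.76%, 5.53% and 6.87%, and the CRE core in 315 (42.9%), against 23.2%, 29.0% and 24.2%. GC boxes, bound by SP1, were present in 498 pairs (67.8%), against 51.9% of single TSSs, 72.6% after weighting and 46.3% of all TSSs. CCAAT boxes, bound by NF-Y, were present in 325 (44.3%), against 33.2%, 30.6% and 36.2%. The TATA box was found in 33 pairs (4.50%), against 9.02% of single TSSs, 5.43% of them after weighting and 10.7% of all TSSs. These shares were not tested. No match to any of the 7 motifs was found in 50 pairs. The same count was not made for other TSSs, so it says nothing particular of the pairs.

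Strand bias was compared between pairs with and without each motif. Pairs with an ETS site had 5.89 ± 0.24 points over the 6 libraries (counting SE) and pairs without it 7.28 ± 0.15, with similar T minus A steps of 3.60 and 3.80 points. Taking the T minus A part off left 0.0909 ± 0.237 and 1.31 ± 0.15. The 33 pairs with a TATA box had 4.20 ± 0.59 points against 7.02 ± 0.13, beside a T minus A step of 1.82 against 3.84. Corrected, these were 1.08 ± 0.59 and 0.957 ± 0.127. The 78 pairs with a YY1 site had 5.73 ± 0.37 points against 7.03 ± 0.13, and 0.324 ± 0.374 against 1.04 ± 0.13 when corrected. For the GC box the values were 6.96 ± 0.15 with and 6.75 ± 0.22 without, for the CCAAT box 6.59 ± 0.19 and 7.12 ± 0.16, for the NRF1 core 7.22 ± 0.44 and 6.86 ± 0.13, and for the CRE core 6.89 ± 0.19 and 6.89 ± 0.16. Corrected, they were 0.889 ± 0.152 and 1.12 ± 0.22 for the GC box, 0.677 ± 0.191 and 1.19 ± 0.16 for the CCAAT box, 0.953 ± 0.438 and 0.963 ± 0.129 for the NRF1 core, and 0.515 ± 0.191 and 1.30 ± 0.16 for the CRE core. These errors cover counting only and not the spread among pairs.

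Pairs were also grouped by 13 lists of gene symbols. Beside them, all pairs had a mean of 6.89 ± 0.12 points (counting SE), a median of 6.60, and 606 of 733 above 0. The DNA replication list stood high, with 15 pairs of 14 genes at a mean of 12.1 ± 0.94 points and a median of 11.98, all above 0 by the mean of the 6 libraries. Its T minus A step was also large, at 6.25 against 3.75, and 2.25 ± 0.94 points were left with the T minus A part off. Highest among them was Dbf4/Slc25a40, where Dbf4 encodes the activating subunit of the CDC7 kinase that fires origins, at 25.5, 26.2 and 49.1 points in naive control, dKO and dCD and 15.1, 24.6 and 13.5 points in the same order in EpiLCs. Lowest was Tmem199/Poldip2, which gave 2.56, -0.126 and -9.38 points in the naive and 5.44, 7.17 and -2.61 in the EpiLC libraries. Rpa3, a subunit of the single-strand binding protein RPA, was counted in 2 pairs over the same reads.

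Histone genes lay lower. The 14 pairs of replication-dependent histones, which are transcribed in S phase, had a mean of -1.12 ± 0.94 points and a median of -1.02. Only 5 were above 0, and the counting interval of the summed reads lay above 0 at 1 pair and below 0 at 4. Of these pairs, 12 lie in the clusters on chromosome 13, where windows overlap and genes are near-identical copies, so that reads may not be placed with certainty. Their T minus A step was 0.205 percentage points, and -1.28 ± 0.94 points were left without the T minus A part.

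Among the other lists, developmental transcription factors had 3 pairs only, at 13.1 ± 1.8 points, and cytosolic ribosomal proteins 8 pairs at 8.85 ± 1.10. Ubiquitin and proteasome genes (37 pairs) had 8.62 ± 0.55, DNA repair genes (24) 7.71 ± 0.73, zinc finger genes (23) 7.44 ± 0.73, chaperones (17) 6.68 ± 0.79 and mitosis genes (21) 6.13 ± 0.71 points. Mitochondrial ribosomal proteins (18) had 5.64 ± 0.76, splicing and RNA processing genes (36) 4.78 ± 0.54, aminoacyl-tRNA synthetases (5) 4.62 ± 1.46 and respiratory chain genes (24) 4.49 ± 0.69 points. Corrected for T minus A content, all pairs had a mean of 0.962 ± 0.124 points and the order of the lists was another. Developmental transcription factors then had 4.15 ± 1.83 points, cytosolic ribosomal proteins 3.25 ± 1.10 and ubiquitin and proteasome genes 2.68 ± 0.55, above the 2.25 of the replication list. Mitochondrial ribosomal proteins had 1.21 ± 0.76, chaperones 0.803 ± 0.787, DNA repair genes 0.344 ± 0.731 and respiratory chain genes 0.254 ± 0.686 points. Below 0 were zinc finger genes at -0.193 ± 0.732, mitosis genes at -0.609 ± 0.707, histones at -1.28 ± 0.94, aminoacyl-tRNA synthetases at -1.45 ± 1.46 and splicing genes at -2.37 ± 0.54 points.

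**Figure D4:**
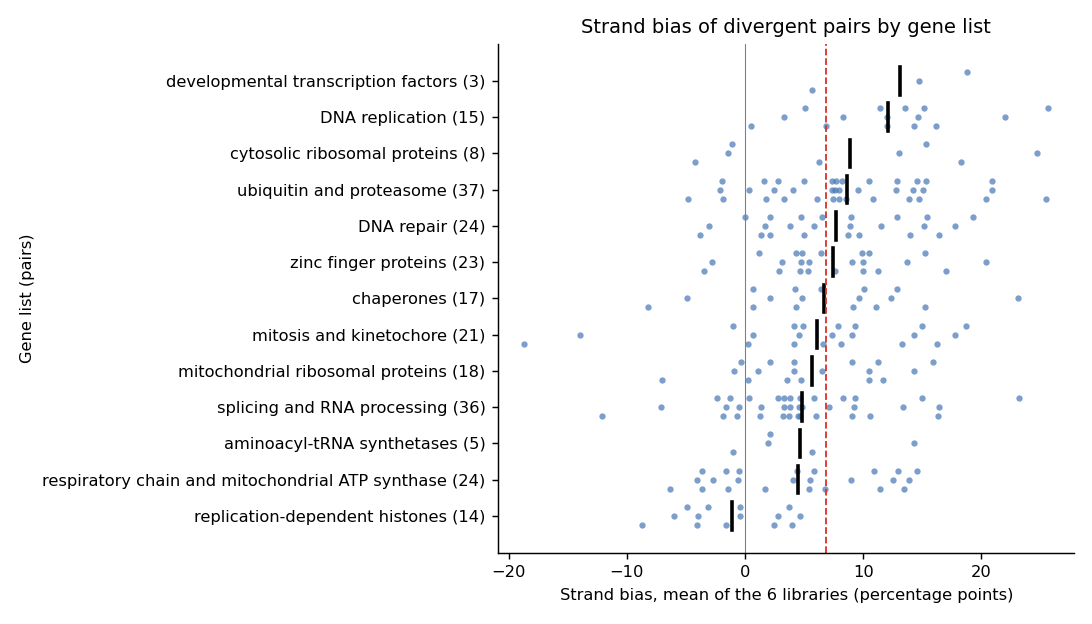
Strand bias as the mean of the 6 libraries, in percentage points (horizontal axis), of each divergent pair (points) in 13 gene lists (vertical axis, with the number of pairs). Black bars are list means and the dashed line is the mean of all pairs, 6.89 points. DNA replication pairs lie at 12.1 points on average, with none below 0, and histone pairs at -1.12.

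Of 51 gene pairs listed from general knowledge as head-to-head, 14 met the rule. In naive ESCs the mean of the 3 libraries was above 0 at 12 of the 14, against 598 of all 733 pairs (81.6%), with a median of 12.1 points (range -1.77 to 24.7), and in EpiLCs the median was 5.86 (range -1.67 to 19.3). Abhd12/Gins1 was highest. Gins1 encodes a subunit of the GINS complex of the replicative helicase. Strand bias there was 30.0, 19.4 and 24.6 points in naive control, dKO and dCD, and 20.9, 18.5 and 18.5 points in EpiLCs. The summed naive reads gave 24.7 points (95% counting interval 13.2 to 35.3) from 134 reads on the left and 155 on the right, and the summed EpiLC reads 19.3 (12.96 to 25.4). Corrected means were 12.9 points in naive and 9.81 in EpiLC libraries. All 6 values were above 0, and naive and EpiLC values overlapped.

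Other pairs of replication genes varied. Mcm4/Prkdc, whose genes encode a subunit of the MCM helicase and the catalytic subunit of DNA-PK, gave 8.96, 30.0 and 21.2 points in naive and 9.63, 8.68 and 12.5 in EpiLC control, dKO and dCD libraries. Corrected, its means were 3.14 points in naive and -1.87 in EpiLC libraries. Rpa1/Smyd4, with the large subunit of RPA, gave 14.8, 19.9 and 18.4 points in naive and 9.81, 11.1 and 7.25 in EpiLC libraries. The counting intervals of its summed reads overlapped between states, at 5.60 to 28.2 in naive ESCs and 2.83 to 16.1 in EpiLCs. Correction left Rpa1/Smyd4 means of 1.44 and -4.06 points, after a T minus A step of 10.5. Prpf38a/Orc1, with the largest subunit of the origin recognition complex, had no common sign: 9.03, 18.1 and -10.6 points in naive and 8.23, -6.60 and 1.70 in EpiLC libraries, with corrected means of -4.08 and -4.10.

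The DNA damage response is represented by several of these pairs. Hscb/Chek2, with the checkpoint kinase CHK2, gave 9.54, 5.43 and 39.2 points in naive and 23.4, 8.47 and 12.4 in EpiLC libraries, all above 0, and its corrected means were 11.5 and 8.76. Atm/Npat, which pairs the kinase ATM with an activator of histone genes, gave 17.2, 4.17 and 10.6 points in naive and 8.02, -0.150 and 13.6 in EpiLC libraries. The correction turned its means to -1.41 points in naive and -2.49 in EpiLC libraries. Brca1/Nbr1 lay around 0, at 1.23, -6.54 and 13.4 points in naive and -5.89, 4.55 and 1.21 in EpiLC libraries, and its corrected means were -11.1 and -9.58. Wrap53/Trp53 did so too, with a summed naive value of -2.11 points (-10.8 to 6.61) and a summed EpiLC value of 0.669 (-4.71 to 6.03), and corrected means of -2.47 and -1.18. The summed naive libraries held 120 to 220 reads on each side of the 8 pairs named here, so that small steps were not detectable at a single pair.

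The 6 pairs with the highest mean strand bias in the 3 EpiLC libraries were ranked without the naive values, which are described beside them. In EpiLCs these chosen pairs had means of 21.8 to 28.1 points. In naive ESCs all 6 were also above 0, as were 598 of all 733 pairs (81.6%), with means of 21.3 to 36.5 points at the 6. Atg13/Harbi1, with an early factor of autophagy and a gene derived from a transposase, gave 33.7, 24.2 and 26.4 points in EpiLC and 24.6, 30.4 and 50.1 in naive libraries. Rps6kb1/Tubd1, which encode the S6 kinase and delta-tubulin, gave 21.5, 21.7 and 23.1 points in EpiLC and 35.0, 37.1 and 37.4 in naive libraries. The counting intervals of its summed reads overlapped narrowly, at 16.8 to 27.7 in EpiLCs and 27.0 to 45.1 in naive ESCs. Lrrc51/Numa1, the latter a protein of the spindle poles, gave 24.3, 22.5 and 20.98 points in EpiLC and 23.4, 19.2 and 26.3 in naive libraries. Smim14/Ube2k and Exoc2/Gm5447 had naive means of 26.7 and 26.0 points. Slf1/2210408I21Rik had the largest T minus A step of the named pairs, 14.9 percentage points, and a naive mean of 21.3 points as counted and -3.01 without the T minus A part. At the other five, 15.2 to 20.5 points were left in naive ESCs.

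The 6 lowest pairs had EpiLC means of -15.2 to -11.8 points, and 1 of the 6 had a naive mean above 0. Corrected, the naive mean was above 0 at 4 of the 6, at 2.997 points for Trmt5/Slc38a6, 2.08 for Hist1h2ac/Hist1h2bc, 3.17 for Cd3eap/Ppp1r13l and 1.71 for Hist1h2bl/Hist1h2ai, of which the first 3 were below 0 as counted. The corrected EpiLC means of all 6 stayed below 0 (-19.98 to -6.51). The pairs were chosen by their EpiLC values, so these values and their intervals largely restate the choice. Safb2/Safb, a pair of paralogous scaffold attachment factors, was below 0 throughout, at -11.4, -10.5 and -21.02 points in EpiLC and -13.7, -25.3 and -16.7 in naive libraries, although its T minus A step was 3.91. Its summed naive value was -18.3 points (-27.8 to -8.33). Brd8/Kif20a, with a subunit of an acetyltransferase complex and a kinesin of mitosis, was below 0 throughout as well, at -8.92, -14.8 and -17.3 points in EpiLC and -18.2, -25.2 and -27.7 in naive libraries. The remaining lowest pairs were less constant. Trmt5/Slc38a6, with a tRNA methyltransferase, had a T minus A step of -7.22, a summed EpiLC value of -15.3 points (-21.5 to -8.84) and a summed naive value of -5.47 (-16.4 to 5.62). Hist1h2ac/Hist1h2bc had -13.4, -17.6 and -12.05 points in EpiLC and -5.52, -13.8 and 10 in naive libraries. Cd3eap/Ppp1r13l and Hist1h2bl/Hist1h2ai had naive means of -0.942 and 3.59 points.

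**Figure D5:**
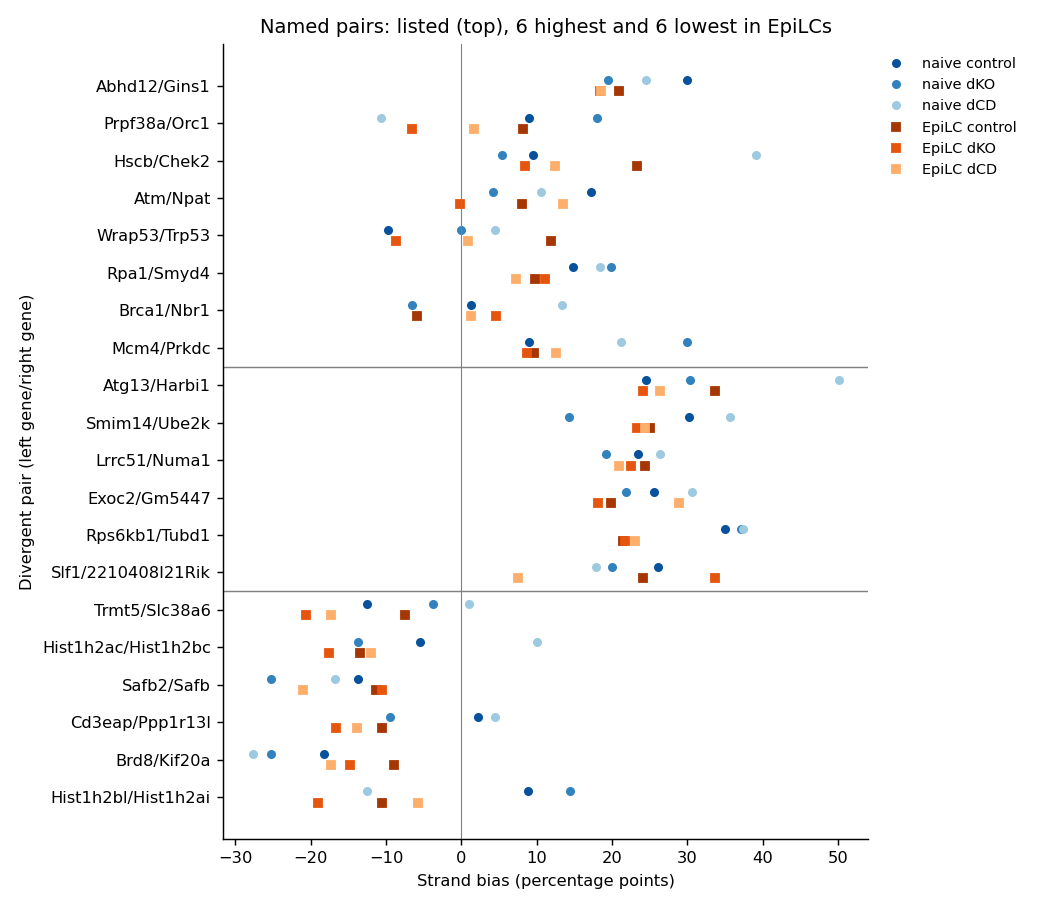
Strand bias in percentage points (horizontal axis) of pairs named in the text (vertical axis) in the 3 naive (circles) and 3 EpiLC libraries (squares), with 8 of the listed pairs at the top, then the 6 highest and the 6 lowest in EpiLCs. Each point is a library. The highest and lowest pairs were chosen by their EpiLC means, so their EpiLC values restate the choice. In the naive libraries the 6 highest lie above 0, and of the 6 lowest, Safb2/Safb and Brd8/Kif20a lie below 0 in each.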

How the data were processed

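OK-seq reads of 12 mouse samples were, per the labels and the methods of the study, trimmed, aligned to mm10 with bowtie2 and counted by strand in 1 kb bins by the authors, who summed the 2 replicates of each group. The processing notes also name FastQC, Trim Galore, Picard and hg19, and versions and duplicate removal are not given in the sources used here. The deposited signal is a read density per bp for each strand, not scaled to depth, and every value was a whole multiple of 0.001, so that 1000 times the value gave whole reads (3652593 to 13591646 per library). PCR duplicates left in the reads would make the counting intervals too narrow, since intervals cover counting error only.

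Python 3.11.15 with numpy 2.4.6, pandas 2.3.3, scipy 1.17.1, matplotlib 3.10.9 and samtools 1.23.1 were used. Bins above 10 times the median (126 bins) were left out, and sites needed at least 10 reads on each side in all 6 libraries. Means over sites carry 95% intervals from binomial variance at its upper limit, summed over bins so that reads shared by neighbouring sites are allowed for. Values of single pairs carry intervals for a difference of proportions. Pairs and single TSSs were compared over the 6 libraries by an exact two-sided sign-flip permutation test. The libraries share sites and cell lines, so they are not independent replicates of each other. The T minus A slope was fitted per library on 1 kb bins against up to 10 neighbouring bins on either side, without the nearest 2. A second slope came from 20163 windows over 100 kb from any TSS. The code was tested on simulated data.

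Named pairs were every listed head-to-head pair that met the rule, and the 6 highest and 6 lowest by mean strand bias in EpiLCs among 731 pairs with at least 50 reads per side in these, leaving out any within 50 kb of a pair already taken. Values of 1 listed pair are not reported here, and of the others those with a gene of replication or the DNA damage response are described singly. The members, gene lists and tests were chosen with earlier results of these data known. Alternatives covered windows, read minimums, pair definition, depth, neighbours, CpG and T minus A content and amplitude.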

Additional observations from a re-analysis of the deposited data

Results flagged for a closer look

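The difference between dKO and control libraries at divergent pairs was 1.05 points in EpiLCs and -0.570 points in naive ESCs, and it differed between the states by 1.62 points (95% counting interval 0.451 to 2.80). With the T minus A content corrected for, the difference between the states was 0.702 points (-0.471 to 1.87). For dCD it was 1.15 points (-0.0449 to 2.35) as counted. Strand bias at pairs minus that at single TSSs differed between control EpiLCs (-0.671 points) and control naive ESCs (1.07 points) by -1.74 points (-2.63 to -0.855), and by -1.01 (-1.90 to -0.128) with the T minus A content corrected for. There was 1 library per condition, so these intervals leave out the spread between cultures, and the cause was not tested.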

How the results depend on the processing

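The step at pairs was above 0 in all 6 libraries under every alternative run, but its size against single TSSs was not stable in sign. Of the alternative values of pairs minus single TSSs, 27 turned sign, 16 gained and 5 lost an interval clear of 0, and 42 did neither. Of those of strand bias at pairs, 4 lost an interval clear of 0 and 68 did not. Values below are in points and are those that changed; the cause was not tested. When reads were summed over sites, pairs minus single TSSs was 0.53 in naive control, -0.591 in naive dCD, -0.0465 in EpiLC dKO and -0.61 in EpiLC dCD. Leaving out 2 kb on either side, pairs minus single TSSs was 0.674 in naive control and -0.619 in EpiLC dCD, and the difference at pairs was 0.0104 for naive dCD minus naive control. After correction for T minus A content by the 1 kb slope, bias at pairs was 0.154 in EpiLC control and 0.234 in EpiLC dCD, and pairs minus single TSSs was -1.07 in naive control, -1.46 in naive dKO, -1.66 in naive dCD, -1.26 in EpiLC dKO and -2.03 in EpiLC dCD, and the difference at pairs was 0.452 for EpiLC dKO minus EpiLC control and 0.0801 for EpiLC dCD minus EpiLC control. Weighting single TSSs to the CpG counts of pairs, pairs minus single TSSs was -0.96 in naive control, -1.17 in naive dKO, -1.64 in naive dCD, -0.835 in EpiLC dKO and -1.63 in EpiLC dCD. Under the slope from 25 kb windows, pairs minus single TSSs was -0.549 in naive control, -0.96 in naive dKO, -1.14 in naive dCD, -0.829 in EpiLC dKO and -1.46 in EpiLC dCD. Weighting single TSSs to the T minus A steps of pairs, pairs minus single TSSs was -1.12 in naive control, -1.63 in naive dKO, -1.94 in naive dCD, -1.27 in EpiLC dKO and -1.97 in EpiLC dCD. Among sites with a T minus A step between -1 and 1, bias at pairs was 0.451 in EpiLC control and 0.986 in EpiLC dCD, and pairs minus single TSSs was 1.34 in naive control, -0.195 in naive dKO, -0.243 in naive dCD and -0.745 in EpiLC dKO, and the difference at pairs was 0.754 for EpiLC dKO minus EpiLC control, 0.535 for EpiLC dCD minus EpiLC control, -1.29 for EpiLC dKO minus naive dKO and -1.43 for EpiLC dCD minus naive dCD. In windows of 10 kb, pairs minus single TSSs was 1.35 in naive dKO, 0.679 in EpiLC control, 1.69 in EpiLC dKO and 1.26 in EpiLC dCD, and the difference at pairs was 0.672 for EpiLC dCD minus EpiLC control. In windows of 50 kb, pairs minus single TSSs was 1.73 in naive dKO, 2.03 in naive dCD, 0.29 in EpiLC control, 0.761 in EpiLC dKO and 0.671 in EpiLC dCD, and the difference at pairs was 0.925 for naive dCD minus naive control. For pairs with no other TSS within 50 kb, pairs minus single TSSs was 2.64 in naive dKO, 2.77 in naive dCD, 1.003 in EpiLC control, 2.16 in EpiLC dKO and 0.981 in EpiLC dCD, and the difference at pairs was 0.53 for EpiLC dCD minus EpiLC control. In libraries thinned to the smallest, pairs minus single TSSs was -0.54 in EpiLC control, and the difference at pairs was 0.999 for EpiLC dKO minus EpiLC control and 1.07 for EpiLC dCD minus EpiLC control. For pairs with no other TSS within 50 kb against single TSSs weighted to their CpG counts, pairs minus single TSSs was -0.143 in EpiLC control and 0.923 in EpiLC dKO. At a minimum of 20 reads, pairs minus single TSSs was -0.452 in EpiLC dCD. For TSSs at most 500 bases apart, the difference at pairs was 0.0368 for naive dCD minus naive control. Scaled by amplitude, the difference at pairs was -2.25 for naive dCD minus naive control, 0.553 for EpiLC dKO minus EpiLC control, -0.267 for EpiLC dCD minus EpiLC control and -0.855 for EpiLC dCD minus naive dCD. Corrected for T minus A content and scaled by amplitude, the difference at pairs was 0.418 for EpiLC dKO minus EpiLC control, 0.0300 for EpiLC dCD minus EpiLC control and -0.804 for EpiLC dKO minus naive dKO. Leaving out each library in turn, the mean of pairs minus single TSSs ranged from 0.0199 to 0.368. The slope from 25 kb windows, the sites with little T minus A step, the weighting to T minus A steps and the amplitude scaling of corrected values were chosen after seeing the data. No paired analysis was possible because the replicates of each group were summed, which also kept single replicates from being left out.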
